A study of Homo sapiens with 8 samples.

Results

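Respiratory complex I is assembled from many small proteins, most of them encoded in the nucleus, and the data were searched for every nuclear gene that carries its family name. Protein-coding genes whose symbol starts with NDUFA, NDUFB, NDUFC, NDUFS, NDUFV or NDUFAF were taken, which gave 48 genes out of 57815 identifiers, 19403 of them protein-coding. Of these genes, 8 carry the symbol NDUFAF of the assembly factors and 40 carry the symbols of subunits. The other 66 identifiers with an NDUF symbol, 62 of them annotated as pseudogenes, were left out. Not every gene found by its symbol encodes a subunit: *NDUFA4* encodes a protein now placed in complex IV, *NDUFA4L2* encodes its paralogue, and *NDUFC2-KCTD14* is a readthrough gene that joins *NDUFC2* with its neighbour. The remaining 37 subunit genes comprise 7 core subunits and 30 accessory subunits.

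RNA-seq was performed on polyA-selected RNA of ABC1 and HCC4006, established human lung adenocarcinoma lines that carry mutations in neither *KEAP1* nor *NRF2*. Cells of each line received diethyl maleate (DEM) at 100 μM or DMSO as the vehicle for 16 h, so ABC1 with vehicle, ABC1 with DEM, HCC4006 with vehicle and HCC4006 with DEM were the 4 groups. Both lines were grown in low-glucose medium with serum. Each group held 2 libraries, numbered 0 and 1, which makes 8 in all. They were biological duplicates of established lines, so the p-values measure the spread between cultures of a line. DEM is an electrophile that reacts with the sensor cysteines of KEAP1 and thereby stabilises NRF2, the transcription factor that drives cytoprotective genes.

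Complex I takes electrons from NADH, passes them through a flavin and a chain of iron-sulfur clusters to ubiquinone, and pumps protons across the inner mitochondrial membrane. Its core subunits carry out the chemistry and its accessory subunits surround and stabilise them. The peripheral arm, which faces the matrix, is built from nuclear products alone, whereas the membrane arm holds the subunits encoded by mitochondrial DNA. Assembly factors bind partly built intermediates and are not found in the finished enzyme. Complex I is also a known source of reactive oxygen species.

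Levels are given as the FPKM that the authors deposited, which counts fragments relative to the length of the transcript and to the fragments mapped in the library. DEM was compared with vehicle by limma on log2(FPKM + 1) across all genes that averaged at least 1 FPKM over the libraries of the line, and a gene was said to rise or fall at a Benjamini-Hochberg adjusted p under 0.05. Because of the pseudocount of 1, a gene with a low FPKM has a log2 fold change smaller than its ratio. FPKM is relative to the library, so less mRNA of a gene and more mRNA of other genes cannot be told apart, nor can RNA per cell be read from it. The smallest p that an exact permutation test, two-sided, could reach for a gene with these 2 libraries against 2 is 0.333. All 8 genes of a list of established NRF2 targets rose in both lines, with medians on the log2 scale of 2.60 (ABC1) and 2.52 (HCC4006), and every DEM library lay above every vehicle library of its line for each of them. Epithelial markers were high in all libraries, with *EPCAM* between 234 and 401 FPKM, and the leukocyte gene *PTPRC* was at most 0.192 FPKM. The other leukocyte genes looked up reached 2.45 FPKM (*CD79A*, in HCC4006), 0.671 FPKM (*CD14*, in ABC1) and 0.0577 FPKM (*CD3E*). Among fibroblast genes, *COL1A1* lay between 3.58 and 7.64 FPKM, and *COL1A2* reached 1.48 FPKM in HCC4006. *DCN* and *LUM* did not exceed 0.161 and 0.615 FPKM. Of the 5 epithelial markers, the keratins *KRT8* and *KRT18* fell in HCC4006 by 0.46 and 0.40 on the log2 scale (limma, Benjamini-Hochberg adjusted p = 0.0158 and 0.0103). In ABC1 no marker passed, but 3 were lower by limma without adjustment, and both DEM libraries lay below both vehicle libraries for 3 of the 5 in ABC1 and 4 in HCC4006. Their part in the complex I results was not tested. The lung lineage genes *NKX2-1* and *NAPSA* were present in HCC4006, where *NKX2-1* lay between 42.4 and 47.1 FPKM, but did not exceed 0.763 and 0.646 FPKM in ABC1. The other lung gene looked up, *SFTPB*, did not exceed 0.277 FPKM in any library.

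In HCC4006 cells, 3 of the 48 complex I genes passed the test after DEM. *NDUFV3* and *NDUFAF4* rose and *NDUFB6* fell. Across all 13542 genes tested in that line the share that passed was 19.1%, with 8.45% rising and 10.7% falling. In ABC1 cells, 0 of the 47 genes tested passed by limma, against 1.20% of 12635 genes, 0.768% rising and 0.435% falling. At an unadjusted p under 0.05 by the same test, 2 were higher and 6 lower, against 21.9% of all genes in either direction. Because the promoters of the genes that changed could be read for the sites that transcription factors of this response use, they are given first, with that of *NDUFA9*, the gene for which the interaction of line and DEM had the smallest p. Each is the 250 bases before the transcription start, 5′ to 3′ on the strand of the gene, from RefSeq on GRCh38.p14. Capitals mark the core of the antioxidant response element TGACNNNGC, which NRF2 binds with small MAF proteins, the site of NRF1 (GCGCA, any base, then GCGC), a regulator of respiratory genes that is distinct from NRF2, and the ETS site CCGGAAG, which GABPA binds, all searched on both strands.
NDUFV3, chr21:42893059-42893308, plus strand: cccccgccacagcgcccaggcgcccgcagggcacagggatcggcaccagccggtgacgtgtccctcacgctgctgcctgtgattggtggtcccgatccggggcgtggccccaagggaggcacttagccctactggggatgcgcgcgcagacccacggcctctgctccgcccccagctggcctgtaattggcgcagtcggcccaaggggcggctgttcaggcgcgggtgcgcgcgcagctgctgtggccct
NDUFAF4, chr6:96897892-96898141, minus strand: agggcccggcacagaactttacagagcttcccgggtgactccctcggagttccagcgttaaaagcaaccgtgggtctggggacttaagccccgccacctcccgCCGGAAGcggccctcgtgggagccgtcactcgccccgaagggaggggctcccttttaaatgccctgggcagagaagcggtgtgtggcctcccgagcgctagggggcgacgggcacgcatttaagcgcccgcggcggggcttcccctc
NDUFB6, chr9:32573160-32573409, minus strand: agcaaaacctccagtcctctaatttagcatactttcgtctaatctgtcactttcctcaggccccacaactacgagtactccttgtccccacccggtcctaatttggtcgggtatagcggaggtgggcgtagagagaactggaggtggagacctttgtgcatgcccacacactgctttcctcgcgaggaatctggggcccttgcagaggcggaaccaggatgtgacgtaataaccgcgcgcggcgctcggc
NDUFA9, chr12:4648864-4649113, plus strand: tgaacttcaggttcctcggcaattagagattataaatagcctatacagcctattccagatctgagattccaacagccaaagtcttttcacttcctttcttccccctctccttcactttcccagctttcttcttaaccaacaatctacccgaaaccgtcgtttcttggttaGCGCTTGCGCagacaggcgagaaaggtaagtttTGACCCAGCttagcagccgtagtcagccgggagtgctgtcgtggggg
The window of *NDUFAF4* held an ETS match, that of *NDUFA9* held a match to the NRF1 site and to the antioxidant response element core, and those of *NDUFV3* and *NDUFB6* held none of the 3. Promoters were found for 40 of the 48 genes. The antioxidant response element core was present in 7 of them, or 17.5%, compared with 13.2% of the promoters of 27305 genes. The genes were *NDUFA2*, *NDUFA3*, *NDUFA9*, *NDUFAF2*, *NDUFAF3*, *NDUFS1* and *NDUFS6*. None of these 7 passed the test of DEM in either line, and their log2 fold changes had medians of -0.12 (ABC1) and -0.16 (HCC4006). The NRF1 site was present in 12.5% of the complex I promoters against 6.20% of all, and the ETS site in 17.5% against 10.2%. No matches overlap in the windows printed, and a match of letters is not a bound site.

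*NDUFV3* encodes an accessory subunit next to the flavin-bearing tip of the peripheral arm, where NADH is oxidised. The gene lies at chr21:44299754-44333414 on GRCh37. In HCC4006 it stood at 29.2 and 25.7 FPKM in the vehicle libraries and at 38.7 and 36.0 FPKM in the DEM libraries, so the groups did not overlap. The mean with DEM was 1.36 times that with vehicle, and the log2 fold change was 0.43 (SE 0.10, limma, Benjamini-Hochberg adjusted p = 0.0315). In ABC1 the gene was lower throughout, at 9.51 and 9.50 FPKM with vehicle and 11.0 and 9.67 FPKM with DEM, and the log2 fold change of 0.11 (SE 0.14) had an adjusted p of 0.680. The lines' responses differed by 0.32 on the log2 scale, with a 95% interval from -0.04 to 0.69, and did not pass the test.

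*NDUFAF4* encodes a factor of the early assembly of the peripheral arm, where it acts together with NDUFAF3. The gene lies at chr6:97337191-97345767 on GRCh37. It was among the 3 lowest of the complex I genes in vehicle libraries. In HCC4006 it rose from 6.55 and 6.67 FPKM with vehicle to 9.01 and 11.99 FPKM with DEM, and the DEM mean was 1.59 times the vehicle mean. The log2 fold change was 0.58 (SE 0.15), with Benjamini-Hochberg adjusted p = 0.0449 in limma. The DEM libraries differed from each other by more than the vehicle libraries did, and both lay above them. In ABC1 its values overlapped, at 6.21 and 5.82 FPKM with vehicle and 6.09 and 6.80 FPKM with DEM. The log2 fold change there was 0.09 (SE 0.15).

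*NDUFB6* encodes an accessory subunit of the membrane arm, and lies at chr9:32552997-32573160 on GRCh37. In HCC4006 it fell from 32.7 and 35.8 FPKM to 27.3 and 25.9 FPKM, which is 0.778 times the vehicle mean, with a log2 fold change of -0.35 (SE 0.09, limma, Benjamini-Hochberg adjusted p = 0.0424). In ABC1 the DEM libraries, at 19.9 and 18.1 FPKM, also lay below the vehicle libraries, at 23.1 and 22.3 FPKM. The log2 fold change of -0.25 (SE 0.13) did not pass there, with an adjusted p of 0.314. The 3 calls in HCC4006 lie close to the threshold. When each library was left out in turn, *NDUFV3* and *NDUFB6* passed in no case, with adjusted p between 0.0627 and 0.152 and between 0.0996 and 0.210, whereas *NDUFAF4* passed without DEM replicate 0 and otherwise had a Benjamini-Hochberg adjusted p of up to 0.139 in limma.

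**Figure D1:**
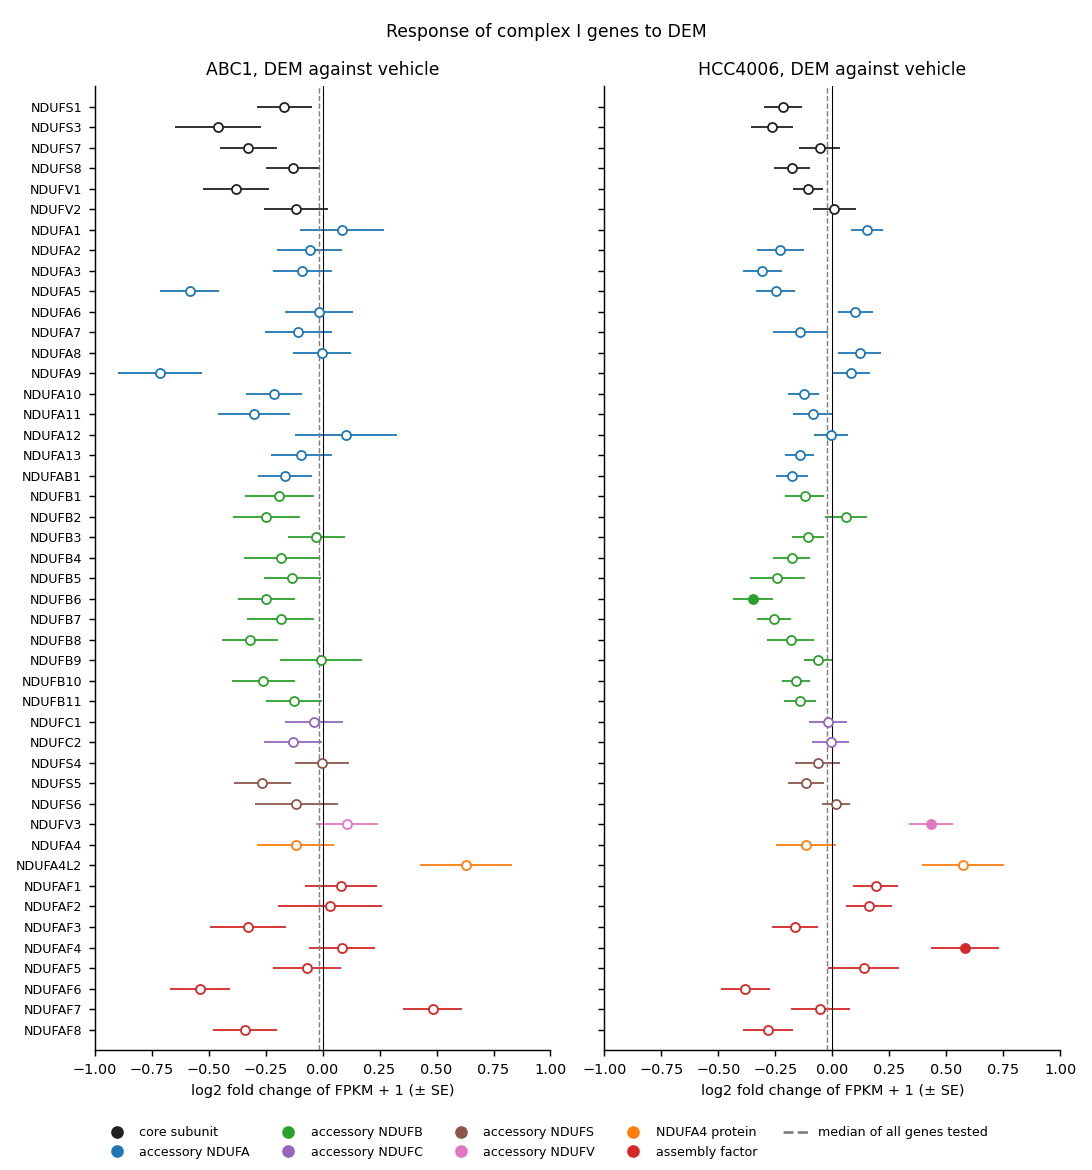
Log2 fold change of FPKM + 1 with DEM against vehicle, with its standard error, in a panel for each line and for the complex I genes named on the vertical axis, coloured by role, beside the median of all genes tested as a dashed line. Filled points mark genes that passed the test, which are *NDUFV3* and *NDUFAF4* above 0 and *NDUFB6* below 0, all in HCC4006, and most of the open points lie slightly below 0 in both lines.

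The core subunits bind the flavin, the iron-sulfur clusters and the ubiquinone site. None of the 7 passed the limma test in either line, with 2 lower at an unadjusted p under 0.05 in each. Of all genes tested, 1.20% passed in ABC1 and 19.1% in HCC4006, and 21.9% and 36.8% had an unadjusted p under 0.05 in either direction. The values of the core subunits lay mostly on the same side of vehicle. In ABC1 the log2 fold change was below 0 for 7 of 7 and in HCC4006 for 6 of 7, with a median of -0.18 in both lines. Of all genes tested, 52.3% had a log2 fold change below 0 in ABC1 and 53.0% in HCC4006. Both DEM libraries lay below both vehicle libraries for 6 of the 7 in ABC1, against 28.2% of all genes, and for 5 of the 7 in HCC4006, against 35.3% of all genes.

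*NDUFV1*, which carries the flavin and the NADH site, was at 91.5 and 112 FPKM in ABC1 with vehicle and at 79.5 and 75.5 FPKM with DEM. Values in HCC4006 were 91.8 and 88.6 FPKM with vehicle and 83.2 and 83.9 FPKM with DEM. The groups did not overlap in either line, but the log2 fold changes of -0.38 (SE 0.14) and -0.11 (SE 0.07) did not pass, with Benjamini-Hochberg adjusted p = 0.205 and 0.282 in limma. Without ABC1 vehicle replicate 1 the value in that line was -0.24. *NDUFV2*, its partner with an iron-sulfur cluster, was at 77.2 and 76.0 FPKM with vehicle in ABC1 and at 77.8 and 64.1 FPKM with DEM. Its values in HCC4006 were 33.0 and 30.5 FPKM against 30.1 and 33.9 FPKM. The groups of *NDUFV2* overlapped in both lines.

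*NDUFS1*, the largest subunit of the peripheral arm and the carrier of several clusters, was nearly identical in the 4 vehicle libraries, at 35.7 and 35.8 FPKM in ABC1 and at 36.6 and 36.7 FPKM in HCC4006. With DEM it was at 30.4 and 33.1 FPKM in ABC1 and at 30.0 and 33.0 FPKM in HCC4006, below vehicle in every library. The log2 fold changes of -0.17 (SE 0.12) and -0.22 (SE 0.08) had Benjamini-Hochberg adjusted p = 0.459 and 0.123 in limma.

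*NDUFS3*, a subunit that joins early in the assembly of the peripheral arm, had the lowest log2 fold change of the core subunits in both lines. It stood at 33.7 and 37.4 FPKM with vehicle and at 30.4 and 21.5 FPKM with DEM in ABC1. In HCC4006 it stood at 22.7 and 22.5 FPKM with vehicle and at 17.7 and 19.7 FPKM with DEM. The log2 fold changes of -0.46 (SE 0.19) and -0.27 (SE 0.09) did not pass, with Benjamini-Hochberg adjusted p = 0.233 and 0.0940 in limma, and in ABC1 the value moved to -0.22 without DEM replicate 1 and to -0.70 without DEM replicate 0.

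*NDUFS7* and *NDUFS8* carry the last clusters before ubiquinone. *NDUFS7* was at 74.4 and 79.3 FPKM with vehicle and at 64.3 and 58.0 FPKM with DEM in ABC1, without overlap. In HCC4006 it was at 32.3 and 30.3 FPKM with vehicle and at 28.6 and 31.6 FPKM with DEM, where the groups overlapped. *NDUFS8* was at 95.2 and 102 FPKM with vehicle and 88.8 and 91.5 FPKM with DEM in ABC1, and at 80.5 and 72.4 FPKM with vehicle and 67.6 and 67.5 FPKM with DEM in HCC4006. Every DEM library of *NDUFS8* lay below the vehicle libraries of its line.

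**Figure D2:**
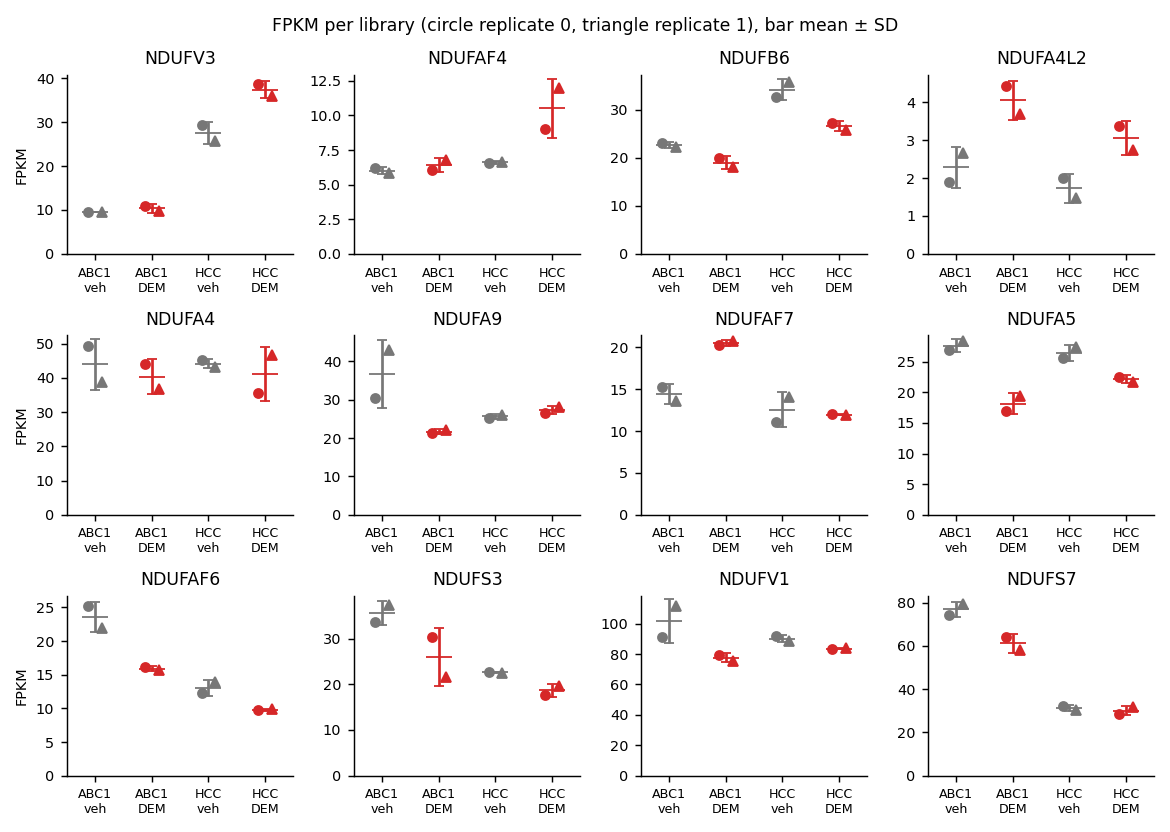
FPKM (vertical axes, from 0) of 12 complex I genes in each of the 8 libraries, as circles for replicate 0 and triangles for replicate 1, with the mean ± SD of each group. The DEM libraries of *NDUFV3* and *NDUFAF4* lie above the vehicle libraries in HCC4006, those of *NDUFA4L2* lie above them in both lines, and those of *NDUFA5*, *NDUFAF6*, *NDUFB6*, *NDUFS3* and *NDUFV1* lie below them in both lines.

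The accessory subunits named NDUFB are all part of the membrane arm. In ABC1 the log2 fold change was below 0 for 11 of 11 of them, from -0.32 for *NDUFB8* to -0.01 for *NDUFB9*, with a median of -0.18. In HCC4006 it was below 0 for 10 of 11, with a median of -0.16. Over all genes the shares below 0 were 52.3% and 53.0%. The DEM libraries lay below the vehicle libraries without overlap for 7 of the 11 in ABC1, against 28.2% of all genes, and for 8 in HCC4006, against 35.3%. The genes *NDUFB4*, *NDUFB10* and *NDUFB9* had the highest mean level of all complex I genes in vehicle libraries. *NDUFB4* was at 324 and 397 FPKM with vehicle and at 294 and 341 FPKM with DEM in ABC1, and at 271 and 256 FPKM against 218 and 248 FPKM in HCC4006. *NDUFB10* was at 175 and 196 FPKM against 145 and 165 FPKM in ABC1, and at 373 and 374 FPKM against 342 and 327 FPKM in HCC4006. Neither passed the test in either line. *NDUFB9* was at 254 and 323 FPKM against 260 and 313 FPKM in ABC1 and at 243 and 233 FPKM against 223 and 233 FPKM in HCC4006, with the log2 fold change closest to 0 of the NDUFB genes in ABC1.

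The 13 accessory subunits named NDUFA are spread over both arms. The median of their log2 fold changes was -0.09 in ABC1, where 11 of 13 were below 0, and -0.13 in HCC4006, where 9 of 13 were below 0. None passed by limma in either line, with 2 lower in ABC1 and 3 lower in HCC4006 at an unadjusted p under 0.05, against 21.9% and 36.8% of all genes in either direction. *NDUFA5*, an accessory subunit of the peripheral arm that was singled out after its values were seen, had the smallest adjusted p of the complex I genes in ABC1. It stood at 26.9 and 28.4 FPKM with vehicle and at 16.9 and 19.3 FPKM with DEM, with a log2 fold change of -0.58 (SE 0.13, limma, Benjamini-Hochberg adjusted p = 0.0926). Levels in HCC4006 were 25.5 and 27.4 FPKM with vehicle and 22.6 and 21.7 FPKM with DEM, with a log2 fold change of -0.25 (SE 0.09, limma, Benjamini-Hochberg adjusted p = 0.0935). The groups of *NDUFA5* did not overlap in either line. *NDUFA3*, of the membrane arm and likewise singled out afterwards, was at 139 and 129 FPKM with vehicle and at 115 and 101 FPKM with DEM in HCC4006, with Benjamini-Hochberg adjusted p = 0.0576 in limma. The other accessory classes are small: the NDUFC genes had medians of -0.08 and -0.01, and the accessory NDUFS genes of -0.12 and -0.06, in ABC1 and HCC4006.

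The assembly factors with an NDUFAF symbol were evenly split in direction. Of the 8 assembly factor genes, 4 had a log2 fold change below 0 and 4 above 0 in each line, and the medians were -0.02 for ABC1 and 0.04 for HCC4006. Among the subunit genes, 35 of the 39 tested in ABC1 and 31 of 40 in HCC4006 were below 0, with medians of -0.13 and -0.12. The medians over all genes tested were -0.02 in ABC1 and -0.03 in HCC4006, and those over genes averaging at least 20 FPKM, among which most subunit genes lie, were 0.01 and -0.03. Without ABC1 vehicle replicate 0 the median of the assembly factors in that line was -0.14 and that of the subunit genes -0.18, and without HCC4006 vehicle replicate 0 they were -0.044 and -0.10. The 12 further assembly factors described below had medians of -0.04 in ABC1 and -0.16 in HCC4006, with 7 and 11 of them below 0. The even split in HCC4006 is thus that of the NDUFAF genes and not of assembly factors at large. The difference between subunits and NDUFAF genes is given as a description, since no test was made over the genes of a list.

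Within the assembly factors the values spread widely. *NDUFAF6*, needed for an early step of assembly and singled out after its values were seen, was at 25.2 and 22.02 FPKM with vehicle and at 16.2 and 15.6 FPKM with DEM in ABC1. HCC4006 held it at 12.2 and 13.9 FPKM with vehicle and at 9.70 and 9.86 FPKM with DEM. Its log2 fold changes of -0.54 (SE 0.13) and -0.38 (SE 0.11) were the lowest of the assembly factors in both lines and did not pass, with Benjamini-Hochberg adjusted p = 0.105 and 0.0569 in limma. *NDUFAF7*, an arginine methyltransferase, lay at 15.2 and 13.6 FPKM with vehicle and at 20.2 and 20.8 FPKM with DEM in ABC1. The log2 fold change was 0.48 (SE 0.13), with Benjamini-Hochberg adjusted p = 0.120 in limma. In HCC4006 its values overlapped, at 11.1 and 14.004 FPKM against 12.1 and 11.9 FPKM. *NDUFAF5*, which modifies NDUFS7 and had one of the 3 lowest levels of all complex I genes, was at 9.41 and 10.4 FPKM against 10.2 and 8.63 FPKM in ABC1 and at 5.75 and 6.58 FPKM against 5.99 and 7.86 FPKM in HCC4006, and overlapped in both.

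In ABC1 cells, an unadjusted p under 0.05 was seen for 2 genes with higher and 6 genes with lower levels after DEM, against 21.9% of all genes in either direction. In HCC4006 it was seen for 3 higher and 11 lower, against 36.8% of all genes. Over all complex I genes the DEM libraries lay below the vehicle libraries without overlap for 23 genes in each line, against 28.2% of all genes in ABC1 and 35.3% in HCC4006. They lay above them for 3 genes in ABC1, against 25.5% of all genes, and for 8 in HCC4006, against 29.3%. When all 8 libraries shared a model, 3 genes fell in ABC1, which were *NDUFA5*, *NDUFA9* and *NDUFAF6*, and *NDUFB6* no longer passed in HCC4006.

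The FPKM of the 37 subunit genes summed to 0.546% and 0.555% of the library in ABC1 with vehicle and to 0.508% and 0.456% with DEM. In HCC4006 the sums were 0.560% and 0.577% with vehicle and 0.516% and 0.540% with DEM. Each DEM library thus held a lower share than either vehicle library of its line, a description of 2 libraries against 2.

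*NDUFA4* and *NDUFA4L2* are paralogues with different regulation, the latter being known as a gene that hypoxia induces. *NDUFA4* was at 49.3 and 38.7 FPKM with vehicle and at 44.04 and 36.7 FPKM with DEM in ABC1, and at 45.1 and 43.2 FPKM against 35.4 and 46.6 FPKM in HCC4006. Its groups overlapped in both lines. *NDUFA4L2* had the lowest level of the complex I genes tested in both lines, at 1.90 and 2.65 FPKM with vehicle and at 4.41 and 3.69 FPKM with DEM in ABC1. In HCC4006 it was at 1.99 and 1.46 FPKM with vehicle and at 3.37 and 2.74 FPKM with DEM. The DEM mean was 1.78 times the vehicle mean in ABC1 and 1.77 times in HCC4006, without overlap. The log2 fold changes of 0.63 (SE 0.20) and 0.57 (SE 0.18) did not pass, with Benjamini-Hochberg adjusted p = 0.160 and 0.0743 in limma.

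The responses of the lines were compared by the interaction of line and treatment, which uses all 8 libraries and shares them with the comparisons above. None of the 48 complex I genes passed, against 0.636% of 13682 genes, 0.307% with a higher and 0.329% with a lower response in HCC4006. By the same limma test without adjustment, 2 were higher and 1 was lower in HCC4006 at a p under 0.05, against 15.1% of all genes. *NDUFA9*, a subunit at the junction of the arms, had the smallest p. It lies at chr12:4758261-4803483 on GRCh37. In ABC1 it was at 30.4 and 42.9 FPKM with vehicle and at 21.2 and 22.1 FPKM with DEM, a log2 fold change of -0.71 (SE 0.19). In HCC4006 it was at 25.2 and 26.1 FPKM with vehicle and at 26.5 and 28.03 FPKM with DEM, a log2 fold change of 0.08 (SE 0.08). The DEM libraries thus separated from vehicle downwards in ABC1 and upwards in HCC4006, as 6.33% of all genes did in either order, and the difference of 0.80 (SE 0.22) had Benjamini-Hochberg adjusted p = 0.157 in limma. The differences for *NDUFAF7*, -0.54 (SE 0.18), and for *NDUFAF4*, 0.50 (SE 0.20), had adjusted p of 0.227 and 0.308 by the same test.

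Between the vehicle libraries, the lines differed in many complex I genes. With the same test, 15 of the 48 were higher and 13 lower in HCC4006 than in ABC1, against 37.3% and 30.4% of 13747 genes and 67.7% in either direction. Differences went both ways within the complex. These comparisons use the same vehicle libraries as those of DEM. Whether the libraries of both lines were normalised together is not given in the sources used here, and scaling factors estimated by the median of ratios lay between 0.965 and 1.03 in the 8 libraries.

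Of the 7 core subunits, 4 were lower and 0 higher in HCC4006 by limma, with or without adjustment. With adjustment 30.4% of all genes were lower and 37.3% higher, and without adjustment 70.8% differed. *NDUFS7* and *NDUFV2* had log2 differences of -1.27 (SE 0.09) and -1.25 (SE 0.09), with Benjamini-Hochberg adjusted p = 0.000199 and 0.000196 in limma. Of the 13 accessory NDUFA genes 5 were higher, close to the 37.3% of all genes, and 0 were lower, against 30.4%, although 3 were lower without adjustment by limma. *NDUFA13*, also known as GRIM-19, was at 97.2 and 104 FPKM in ABC1 and at 318 and 300.3 FPKM in HCC4006, a log2 difference of 1.61 (SE 0.09). Both *NDUFA13* and *NDUFV2* share exonic bases with another gene on their strand, so their FPKM is less certain. *NDUFA6* was at 19.0 and 20.1 FPKM in ABC1 and at 55.6 and 51.4 FPKM in HCC4006. The X-linked gene *NDUFA1* was at 65.5 and 82.0 FPKM against 199 and 193 FPKM. The log2 difference was 1.41 for both (SE 0.10 and 0.13). *NDUFAB1*, the mitochondrial acyl carrier protein that also serves fatty acid synthesis, was at 47.9 and 49.8 FPKM in ABC1 and at 111 and 110.4 FPKM in HCC4006.

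*NDUFV3*, one of the genes that DEM raised in HCC4006, was already higher there with vehicle, by 1.44 (SE 0.11) on the log2 scale. *NDUFS4*, an accessory subunit of the peripheral arm, was higher by 1.33 (SE 0.10) and *NDUFB10* by 1.01 (SE 0.10). *NDUFC1*, of the membrane arm, was at 78.6 and 75.0 FPKM in ABC1 and at 39.6 and 40.9 FPKM in HCC4006, a log2 difference of -0.91 (SE 0.09). Each of these had a Benjamini-Hochberg adjusted p of at most 0.000535 in limma. The 8 assembly factors were split, with *NDUFAF1* and *NDUFAF2* higher and *NDUFAF3*, *NDUFAF5* and *NDUFAF6* lower. Of all genes, 37.3% were higher and 30.4% lower. *NDUFAF3* had a log2 difference of -1.16 (SE 0.09), from 28.2 and 29.3 FPKM to 12.5 and 12.1 FPKM. The counts depend on the libraries kept. They were 10 higher and 4 lower without HCC4006 vehicle replicate 0 and 8 higher and 6 lower without replicate 1, which leave HCC4006 with 1 vehicle library that is assumed to vary as ABC1 does.

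**Figure D3:**
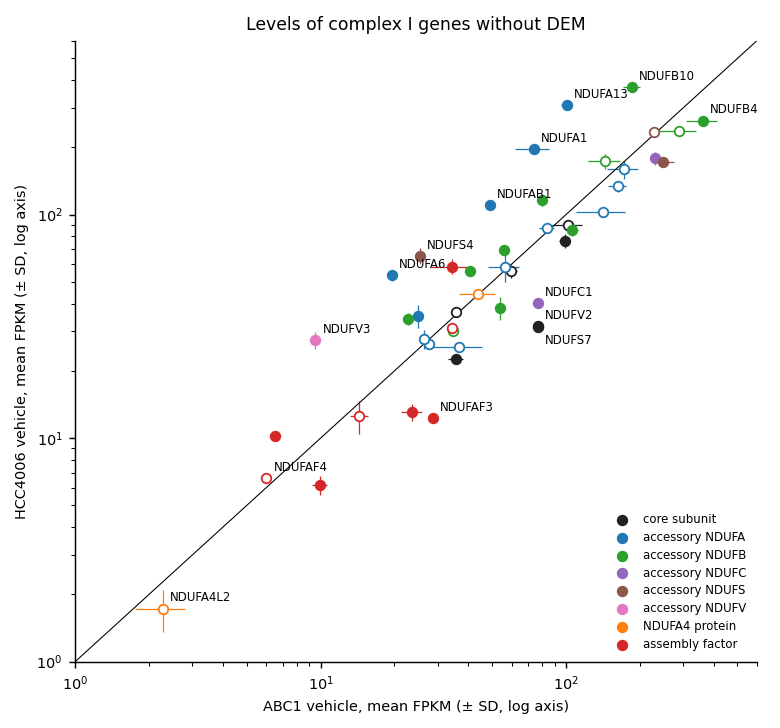
Mean FPKM of each complex I gene apart from *NDUFC2-KCTD14* in the vehicle libraries of ABC1 (horizontal axis) and HCC4006 (vertical axis), both on a log scale and with the SD, coloured by role. Filled points differ between the lines at an adjusted p under 0.05 by limma, and *NDUFA13*, *NDUFV3*, *NDUFA6* and *NDUFA1* lie above the diagonal while *NDUFS7*, *NDUFV2*, *NDUFAF3* and *NDUFC1* lie below it.

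The ratio of deposited counts to FPKM differs among the genes. The authors also deposited a base mean per gene and line, the mean of counts scaled to a common depth, which summed to 13786927 in ABC1 and 13957312 in HCC4006. For 40 complex I genes the base mean was between 4.18 and 42.7 per FPKM. The other 8 had at most 1.02 per FPKM, and each of them shares at least 428 exonic bases on its own strand with another annotated gene. They were *NDUFA7*, *NDUFA9*, *NDUFA11*, *NDUFA13*, *NDUFB8*, *NDUFC2*, *NDUFC2-KCTD14* and *NDUFV2*. The base mean of *NDUFA9* was 26.1 in ABC1 and 27.0 in HCC4006, whereas those of *NDUFV3*, *NDUFAF4* and *NDUFB6* were 892, 98.0 and 291 in HCC4006. Among the 40 other genes, 7 also share exonic bases on their strand, at most 721. They were *NDUFAF6*, *NDUFB2*, *NDUFC1* and the core genes *NDUFS1*, *NDUFS3*, *NDUFS8* and *NDUFV1*, with the most shared bases in *NDUFS3*. The FPKM of genes that share exons is uncertain, because it depends on how fragments were divided between them. Whether counts and FPKM rest on the same fragments is not given in the sources used here. A low base mean therefore need not mean few fragments behind the FPKM. Without the 8 genes of low base mean the calls were the same 3 in HCC4006 and 0 in ABC1 (by limma, 2 higher and 4 lower without adjustment), and the medians of the subunit genes stayed at -0.13 in ABC1 and -0.12 in HCC4006. Between the vehicle libraries, 13 of the remaining 40 were higher and 10 lower in HCC4006, against 37.3% and 30.4% of all genes.

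*NDUFC2-KCTD14* had a base mean of 0 in both lines and shares 428 exonic bases with *NDUFC2*. Its FPKM in HCC4006 was 29.1 and 18.0 with vehicle and 12.4 and 0.392 with DEM. In ABC1 it did not exceed 0.690 and was not tested. The log2 fold change in HCC4006 was -2.47 (SE 0.97), with Benjamini-Hochberg adjusted p = 0.125 in limma, and the DEM libraries differed from each other by more than the vehicle libraries did. The value was -0.83 without DEM replicate 1 and -4.10 without DEM replicate 0, where the gene passed with an adjusted p of 0.0119 by the same test. *NDUFC2* itself was at 170 and 187 FPKM with vehicle and at 169 and 186 FPKM with DEM in HCC4006, where the groups overlapped.

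**Figure D4:**
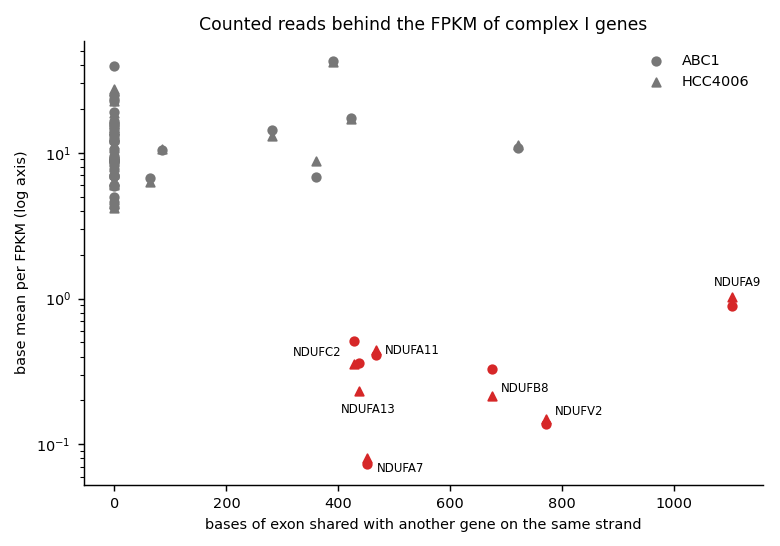
Base mean per FPKM (vertical axis, log scale) of each complex I gene in ABC1 (circles) and HCC4006 (triangles) against the number of exonic bases shared with another gene on the same strand (horizontal axis), without *NDUFC2-KCTD14*, whose base mean is 0. The genes in red, *NDUFA7*, *NDUFA9*, *NDUFA11*, *NDUFA13*, *NDUFB8*, *NDUFC2* and *NDUFV2*, lie at or below 1.02, and the genes in grey lie at or above 4.18.

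The rest of the respiratory chain was read from lists of established subunits and assembly factors. The 7 subunits of complex I that mitochondrial DNA encodes had medians above 0, at 0.28 in ABC1 and 0.17 in HCC4006, whereas the nuclear subunit genes had medians below 0. None of the 7 mitochondrial genes passed, against 1.20% of all genes in ABC1 and 19.1% in HCC4006. By limma without adjustment, 0 had a p under 0.05 in ABC1 and 1 was higher in HCC4006, against 21.9% and 36.8% in either direction. Both DEM libraries lay above both vehicle libraries for 3 of the 7 in each line, against 25.5% of all genes in ABC1 and 29.3% in HCC4006. For *MT-ND2* and *MT-ND4* in ABC1, only DEM replicate 1 lay above both vehicle libraries, at 8307 and 15156 FPKM. The log2 fold change was below 0 for *MT-ND3* in ABC1 and for *MT-ND2* in HCC4006. *MT-ND1* had the highest log2 fold change of the 7 in ABC1, where it lay at 10378 and 10105 FPKM with vehicle and at 12438 and 15004 FPKM with DEM. In HCC4006 it lay at 2518 and 2059 FPKM with vehicle and at 2618 and 2427 FPKM with DEM. Without DEM the mitochondrial genes were lower in HCC4006 for 6 of the 7, against 30.4% of all genes, with a median log2 difference of -1.14. The libraries were made from polyA-selected RNA, and the recovery of mitochondrial transcripts depends on their short tails.

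Of 12 further complex I assembly factors without an NDUFAF symbol, 0 passed in ABC1 (2 lower by limma without adjustment) and *DMAC2* fell in HCC4006, from 61.2 and 55.9 FPKM with vehicle to 47.1 and 47.8 FPKM with DEM. In HCC4006, 4 of the 12 were lower by limma without adjustment. Of all genes tested, 1.20% passed in ABC1 and 19.1% in HCC4006, and 21.9% and 36.8% had an unadjusted p under 0.05. The log2 fold change was below 0 for 7 of the 12 in ABC1 and for 11 in HCC4006, against 52.3% and 53.0% of all genes. The medians of the 12 were -0.04 and -0.16. *NUBPL*, which delivers iron-sulfur clusters to complex I, had the lowest log2 fold change of them in both lines, at 7.13 and 6.996 FPKM with vehicle and 5.03 and 4.53 FPKM with DEM in ABC1, and at 6.27 and 5.86 FPKM against 3.95 and 4.64 FPKM in HCC4006. The groups did not overlap, and neither line passed the test.

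Nuclear genes of the other complexes had medians close to those of complex I. They were -0.09 and -0.06 for 8 complex II genes, -0.14 and -0.12 for 15 complex III genes, -0.08 and -0.14 for 29 complex IV genes and -0.11 and -0.09 for 20 complex V genes, in ABC1 and HCC4006. In ABC1 none passed, while by limma without adjustment 3 complex II genes, 1 complex III gene, 2 complex IV genes and 2 complex V genes had a p under 0.05, against 21.9% of all genes. In HCC4006, *UQCC2* of complex III and *COX14*, *COX20* and *SCO1* of complex IV fell, *COA6* of complex IV rose, and no gene of complexes II and V passed, of which 1 and 2 had an unadjusted p under 0.05 by limma. In that line 19.1% of all genes passed, 8.45% rising and 10.7% falling, and 36.8% had an unadjusted p under 0.05. *UQCC2*, an assembly factor of complex III, was at 26.4 and 22.7 FPKM with vehicle and at 14.9 and 15.4 FPKM with DEM in HCC4006, with a log2 fold change of -0.66 (SE 0.10, limma, Benjamini-Hochberg adjusted p = 0.0124). In ABC1 it was at 43.6 and 42.7 FPKM against 27.6 and 24.8 FPKM, with a log2 fold change of -0.70 (SE 0.12). The adjusted p by the same test was 0.0662 in ABC1. It was 0.0498 with a minimum of 5 FPKM, 0.0111 when all 8 libraries shared a model and 0.154 with no minimum. With each ABC1 library left out, the log2 fold change of *UQCC2* ran from -0.77 to -0.63. *COA6*, a copper-binding assembly factor of complex IV, was at 27.0 and 30.3 FPKM with vehicle and at 36.7 and 39.9 FPKM with DEM in HCC4006, and at 36.5 and 43.4 FPKM against 64.6 and 72.3 FPKM in ABC1. Its log2 fold change in ABC1 was 0.76 (limma, Benjamini-Hochberg adjusted p = 0.0696), and it passed in the model of all 8 libraries, at 0.0124, and with libraries scaled by the median of ratios or to the same sum, at 0.0379 and 0.0429. With no minimum on FPKM the adjusted p of *COA6* in ABC1 was 0.223 by limma. Its log2 fold change there ran from 0.64 to 0.89 with each ABC1 library left out.

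Regulators of mitochondrial gene expression had medians of 0.04 and -0.01 among the 13 tested of 14. In HCC4006, *GABPB1*, a subunit of the ETS-family factor GABP, rose from 12.1 and 15.7 FPKM to 19.8 and 23.5 FPKM, and *YY1* rose with a log2 fold change of 0.39 (SE 0.10). *TFAM*, which packages mitochondrial DNA, fell from 35.5 and 33.5 FPKM to 22.8 and 26.5 FPKM, a log2 fold change of -0.47 (SE 0.10). These are 3 of 13, against 19.1% of all genes. In ABC1 none passed, and by limma without adjustment 2 were higher and 1 was lower, against 21.9% of all genes in either direction. *GABPB1* was at 12.3 and 14.1 FPKM with vehicle and at 20.01 and 20.3 FPKM with DEM in that line. In HCC4006 the Benjamini-Hochberg adjusted p values in limma were 0.0400 for *GABPB1*, 0.0440 for *YY1* and 0.0274 for *TFAM*. With each HCC4006 library left out they ran from 0.0371 to 0.0656 for *UQCC2*, from 0.0433 to 0.123 for *TFAM* and from 0.0495 to 0.168 for *YY1*, whereas *COA6*, *COX14*, *COX20*, *DMAC2*, *GABPB1* and *SCO1* passed in none of these fits.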

How the data were processed

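RNA-seq of 8 libraries of ABC1 and HCC4006 was analysed, 2 for each line and treatment, grouped by their titles. The authors aligned strand-specific paired-end reads to hg19 and deposited FPKM values per Ensembl gene identifier and library. The methods name TopHat and Cufflinks, whereas the submitters' processing notes list bcl2fastq 2.15.0, cutadapt 1.15, STAR 2.5.3a, SAMtools, Cuffnorm, HTSeq, DESeq2 and R 3.2.0, so the aligner is uncertain. The authors also deposited, for each line, a base mean per gene, a signal averaged over libraries of counts scaled to a common depth. Log2 fold changes, standard errors, test statistics, p-values and adjusted p-values of their own comparison stand in the same tables and were not used.

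Sums of FPKM differed by at most 1.18 times between libraries, and a library held 12515 to 13573 genes at 1 FPKM or more. Because counts of single libraries were not used here, counting error is not given. Replicates correlated at 0.992 to 0.995 on the log2 scale.

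Within each line, DEM and vehicle were compared with limma 3.58.1 in R 4.3.3 using a mean-variance trend on log2(FPKM + 1). Genes had to average at least 1 FPKM in the line, and p-values were adjusted over all genes tested by the Benjamini-Hochberg method at 0.05. The interaction and the vehicle comparison used the same settings on the libraries they concern. The code was tested on simulated data. Alternatives were a pseudocount of 0.1, no minimum, a minimum of 5, libraries rescaled to the same sum or by the median of ratios, no trend, a model of all 8 libraries, a replicate block and leaving out each library. Leaving out genes of low base mean, unadjusted p-values and the comparison with genes of at least 20 FPKM were added after seeing the data.

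Symbols and positions of 55534 of the 57815 identifiers came from the GENCODE annotation on GRCh37, the assembly of hg19. The complex I genes and all gene lists were chosen with earlier results of these data known. Values per library are given for the core subunits, apart from a gene that enters the counts but is not reported here, for called genes, for the 3 smallest interaction p-values, for the 3 highest and the 3 lowest vehicle levels and for *NDUFA4* and *NDUFA4L2*. *NDUFA1*, *NDUFA3*, *NDUFA5*, *NDUFA6*, *NDUFA13*, *NDUFAB1*, *NDUFAF3*, *NDUFAF6*, *NDUFC1*, *NDUFC2*, *NDUFC2-KCTD14*, *NDUFS4* and, of the other lists, the genes that passed in HCC4006 were chosen after their values were seen.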

Additional observations from a re-analysis of the deposited data

Results flagged for a closer look

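The libraries of *NDUFA9* separated in opposite directions in the lines, since DEM lay below vehicle in all libraries of ABC1 and above it in all those of HCC4006. The difference between the log2 fold changes was 0.80 (SE 0.22). It did not pass the interaction test, with Benjamini-Hochberg adjusted p = 0.157 in limma, and with each library left out it lay between 0.55 and 1.04. Such a separation was seen for 6.33% of the 13682 genes tested and for no other complex I gene. The ABC1 vehicle libraries of this gene, at 30.4 and 42.9 FPKM, differed from each other by more than those of HCC4006, and its base mean was 26.1 and 27.0 in the lines, with 1103 exonic bases shared with another gene on its strand. Their part in the difference was not tested.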

How the results depend on the processing

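In HCC4006, 2 complex I genes rose and 1 fell. No gene rose or fell with no minimum on FPKM or with no trend, 1 rose and 2 fell with libraries scaled to the same sum, 3 fell with a minimum of 5, 0 fell in the model of all 8 libraries, and 11 fell by unadjusted p. With each library left out, 0 to 1 rose and 0 to 1 fell. In ABC1, where 0 rose and 0 fell, 3 fell in the model of all 8 libraries, and 2 rose and 6 fell by unadjusted p. The vehicle comparison gave 8 to 15 higher and 4 to 18 lower with each library left out, against 15 and 13. The median of the subunit genes stayed below 0 throughout, in ABC1 from -0.19 to -0.13 and in HCC4006 from -0.13 to -0.095. With each library left out, the assembly factors had medians of -0.14 to 0.021 in ABC1 and, in HCC4006, of -0.044 to 0.095. The direction of some small changes reversed with a library left out. Over these fits the log2 fold change in ABC1 ran from -0.25 to 0.022 for *NDUFV2* and from -0.29 to 0.051 for *NDUFA4*, and in HCC4006 from -0.075 to 0.093 for *NDUFV2*, from -0.13 to 0.016 for *NDUFS7*, from -0.31 to 0.077 for *NDUFA4* and from -0.21 to 0.11 for *NDUFAF7*. The cause was not tested. Of the values for single genes, 614 kept direction and side of the threshold, 80 lost and 25 gained a call, and 8 reversed.

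The replicate numbers are shared by the groups, but the labels do not say that a number marks a batch. Deviations of libraries with the same number correlated at 0.257 in ABC1 and 0.0538 in HCC4006. With a replicate block, 1 gene rose and 8 fell in ABC1, and 5 fell in HCC4006. In ABC1 they were *NDUFAF7*, which rose, and *NDUFA5*, *NDUFA9*, *NDUFA11*, *NDUFAF6*, *NDUFB8*, *NDUFB10* and the core genes *NDUFS7* and *NDUFV1*. In the same fits *COA6*, *GABPB1* and *UQCC2* passed in ABC1 and *NDUFC2-KCTD14* in HCC4006.

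Genes near the threshold in groups of 2 libraries, low levels such as that of *NDUFA4L2*, and genes that share exons are the least certain values.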
